A study of Mus musculus with 28 samples.

Results

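Transcription factor genes known to establish or maintain the identity of microglia were followed here, 8 in all: *Spi1*, *Irf8*, *Sall1*, *Maf*, *Mef2a*, *Mef2c*, *Runx1* and *Cebpa*. They were chosen by name and are 8 of the 48587 genes in the count table. All 8 passed the low-count filter, which left 15298 genes for testing. RNA was sequenced from microglia sorted out of the hippocampus of 28 male mice aged 16 weeks.

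The 14 mutant mice were heterozygous 5xFAD animals on a C57BL/6J background, which carry human *APP* and *PS1* transgenes with familial Alzheimer's disease mutations driven by the neuronal Thy-1 promoter, and the 14 controls were their littermates without the transgenes, called WT. Each genotype was studied under conventional specific pathogen-free housing (SPF), in germ-free animals (GF) and after antibiotics in the drinking water (ABX: vancomycin, cefoxitin, gentamicin and metronidazole, 8 weeks). There were 5 WT and 3 5xFAD mice under SPF conditions, 4 WT and 5 5xFAD mice that were GF, and 5 WT and 6 5xFAD mice given ABX. All cells were taken from a viable CD11b+CD45low gate that left out cells stained for other lineage markers, among them CD3, Ly6C and Ly6G. The GF mice came from another animal facility than the SPF and ABX mice, so germ-free status and facility cannot be told apart. One mouse, FAD_GF_201, is titled GF 5xFAD but described elsewhere in its labels as GF WT, and it was kept under its title.

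*Spi1* encodes PU.1, the ETS factor on which the whole myeloid lineage depends, and IRF8 is its partner at many macrophage enhancers. SALL1, a zinc-finger factor found in microglia but in few other macrophages, is needed to hold microglia in their resting state and depends on TGF-beta signalling. MAF, MEF2A and MEF2C act at the enhancers of mature microglia, whereas RUNX1 and C/EBP-alpha act in the formation and proliferation of myeloid cells.

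Each library held between 14441610 and 29977395 counts in genes, so that the factor with the fewest reads, *Cebpa*, still had at least 931 counts in every mouse. The microglial markers *Tmem119*, *P2ry12*, *Cx3cr1*, *Siglech* and *Fcrls* together reached 16540 to 30150 CPM of the library total (read counts scaled to a common depth) in all 28 mice. T cell markers did not exceed 0.379 CPM in any mouse. Neutrophil markers (*S100a8*, *S100a9*, *Ngp*, *Camp*, *Ltf* and *Retnlg*) summed to 61.1 to 263 CPM in the 3 SPF 5xFAD mice and 143.5 CPM in mouse FAD_ABX_1151, against at most 0.294 CPM in the other 24. Markers of border-associated macrophages (*Mrc1*, *Cd163*, *Lyve1*, *Pf4*, *Cbr2* and *F13a1*) summed to 32.8 to 242 CPM in ABX 5xFAD mice, 15.3 to 28.3 CPM in SPF 5xFAD mice, and at most 8.09 CPM in WT mice under SPF or ABX conditions. The sample descriptions were written in 2 styles. A running number with a mouse number was used for all SPF mice, the ABX WT mice and mouse FAD_ABX_1151, and a running number with condition and genotype for every GF mouse and the remaining 5 ABX 5xFAD mice. What the styles stand for is not given in the sources used here. The comparisons of 5xFAD with WT in SPF and in GF mice each lie within a single style. In the style with mouse numbers, however, some running numbers occur in both a WT and a 5xFAD mouse. WT and 5xFAD mice of that style may thus belong to separate series, which is not stated. Such series would coincide with genotype in SPF mice and could not be told apart from it. In ABX mice the comparison crosses styles, and style and genotype are separated there only by mouse FAD_ABX_1151. That mouse shares the style of the ABX WT mice, but its running number also occurs in a WT mouse. If WT and 5xFAD mice form separate series, genotype and series coincide in ABX mice too.

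*Spi1* lies on the plus strand of chr2:91082390-91115756 (GRCm38) and *Irf8* on the plus strand of chr8:120736358-120756694. *Sall1* (chr8:89027235-89044162) and *Maf* (chr8:115682942-115707794) occupy the minus strand of the same chromosome. *Mef2a* covers chr7:67231163-67372858 on the minus strand and *Cebpa* chr7:35119293-35121928 on the plus strand. *Mef2c* lies at chr13:83504034-83667080 (plus strand) and *Runx1* at chr16:92601466-92826149 (minus strand). Their counted exons span 2636 bases in *Cebpa* to 15715 bases in *Mef2c*. Exons of *Mef2a* overlap *Lysmd4* on the opposite strand, which averaged 225 counts against 13070 for *Mef2a*, and those of *Cebpa* overlap Gm45091, at 25.7 against 1793 counts. Whether counting used the strand is not given in the sources used here.

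Promoter sequence was at hand for 6 of the 8 genes in RefSeq (GRCm38.p6), with 12 start sites in all. The 250 bases before each start were searched on both strands for the motifs of the factors themselves: the PU.1-type ETS motif GAGGAAG, the RUNX motif TGTGGT, the C/EBP motif TTNNGCAA, the MEF2 motif TAAAAATA, the MAF half-site TGCTGAC and the IRF motif GAAANNGAA. The 2 promoters below belong to the genes with the most frequent calls across the comparisons that follow besides *Maf*, and each is written 5′ to 3′ on the gene's strand, with motif matches in capitals. The first covers chr7:67372859-67373108 and the second chr8:89044163-89044412, both on the minus strand.
Mef2a: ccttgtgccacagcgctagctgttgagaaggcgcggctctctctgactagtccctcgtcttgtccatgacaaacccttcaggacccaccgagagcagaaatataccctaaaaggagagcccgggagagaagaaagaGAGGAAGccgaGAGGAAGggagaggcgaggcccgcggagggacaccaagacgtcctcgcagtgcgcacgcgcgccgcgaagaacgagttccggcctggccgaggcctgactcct
Sall1: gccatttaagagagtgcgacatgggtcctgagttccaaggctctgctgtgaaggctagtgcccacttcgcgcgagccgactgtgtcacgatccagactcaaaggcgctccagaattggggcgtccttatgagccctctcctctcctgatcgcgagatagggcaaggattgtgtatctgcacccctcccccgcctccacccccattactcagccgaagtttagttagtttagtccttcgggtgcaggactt
The *Mef2a* promoter held the ETS letters at 2 places, beginning 114 and 103 bases before the start, and 1 of the *Mef2c* promoters held them 186 bases before its start. Of 32851 mouse promoters of the same length, 10.6% held this motif. The other 5 motifs, which were present in 2.45% (MEF2) to 14% (RUNX) of all promoters, had no match in the 12 windows. A match is a description of letters and not a binding site.

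Levels of the factors were given as CPM scaled by trimmed mean of M-values (TMM), which differ slightly from CPM of the library total. All 8 genes were among the more abundant transcripts, from the 85.6th percentile of tested genes for *Cebpa* to the 99.2nd for *Irf8*. Per kilobase of counted exon, *Sall1* led in SPF WT mice with 145 ± 7.80 CPM per kilobase (SD, n = 5), above *Spi1* at 121 ± 7.69 and *Irf8* at 103.5 ± 7.42. The mice of *Sall1* and *Spi1* did not overlap on this scale, whereas those of *Spi1* and *Irf8* did. *Mef2a* (57.0 ± 5.75) and *Mef2c* (52.1 ± 2.62) followed with overlapping mice, then *Maf* (40.6 ± 5.18) and *Cebpa* (36.9 ± 4.76), also overlapping, and *Runx1* was lowest at 11.5 ± 0.513. The order depends on the length used, because the counted exons of *Mef2a*, *Mef2c* and *Irf8* are far longer than a single transcript. With the length of the reference transcript, *Irf8* came first at 210.5 CPM per kilobase and *Sall1* dropped to rank 4 at 145.

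**Figure D1:**
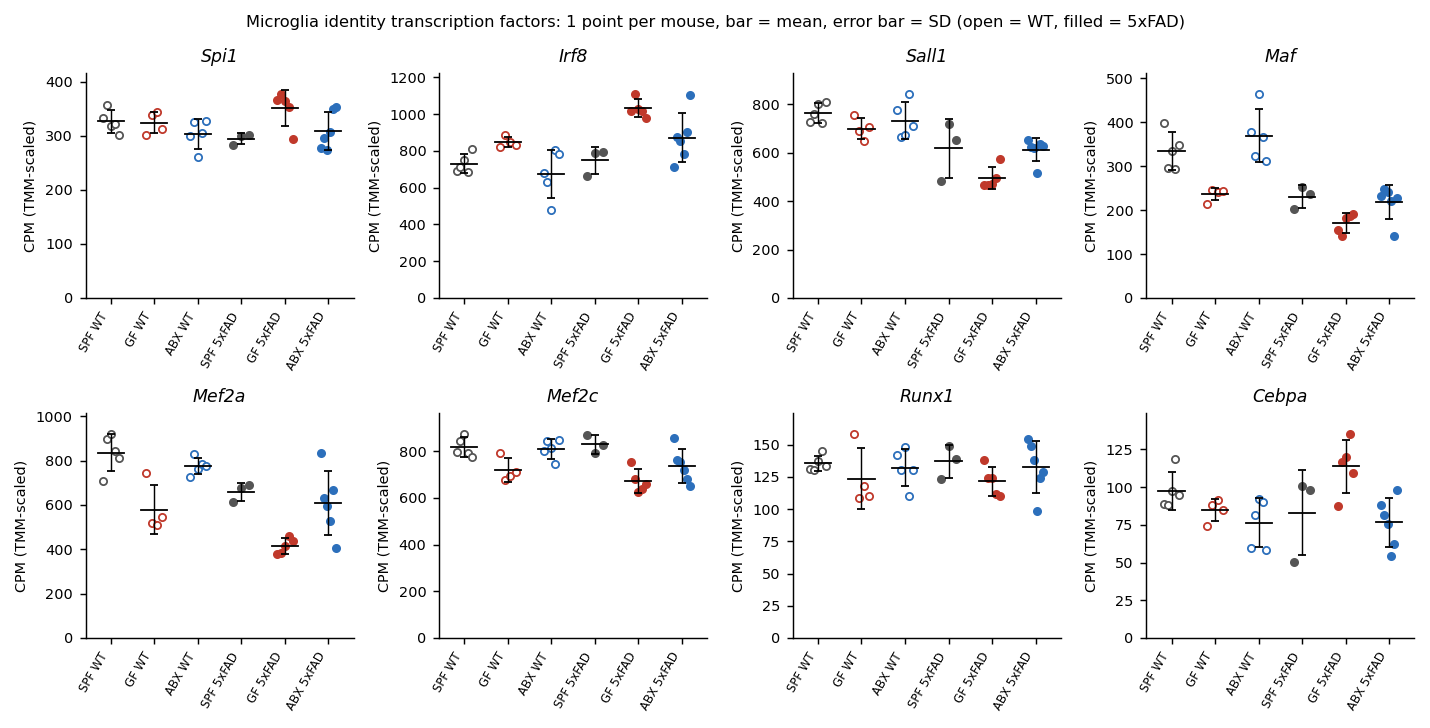
TMM-scaled CPM (y axis, linear from 0) of the 8 factors in the 6 groups (x axis), with 1 point per mouse, the mean as a bar and the SD as an error bar, WT open and 5xFAD filled. *Maf* and *Sall1* sit lower in every 5xFAD group than in the WT group under the same condition, *Mef2a* is lowest in GF 5xFAD mice (378 to 460 CPM), and *Spi1* and *Runx1* stay within 260 to 378 CPM and 98.9 to 159 CPM across all 28 mice.

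The first question was how the factors differed between 5xFAD and WT microglia, on average and under each condition. Averaged over the 3 conditions, *Maf*, *Sall1* and *Mef2a* were lower and *Irf8* was higher in 5xFAD mice, so that 4 of the 8 factors passed edgeR's quasi-likelihood test at an adjusted p below 0.05, against 25.1% of all genes tested. The other 4 factors, *Spi1*, *Runx1*, *Mef2c* and *Cebpa*, did not pass it. In SPF mice 1 of 8 passed (4.57% of all genes), in GF mice 3 of 8 (15.6%) and in ABX mice 4 of 8 (14.4%). Fewer cells of a type and less RNA per cell cannot be told apart in such sorted bulk samples.

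*Maf* had the largest fold change of the 8 on average and in SPF and ABX mice, whereas in GF mice *Sall1* and *Mef2a* had slightly larger ones. SPF WT mice had 294.5, 297, 335, 348 and 398 CPM, and SPF 5xFAD mice 202, 236 and 253. GF WT mice had 215, 242, 244 and 246 CPM, and GF 5xFAD mice 140.5, 155, 188 and 192, with the other mouse between 155 and 188. ABX WT mice had 312.5, 323, 367, 378 and 465 CPM, and ABX 5xFAD mice ranged from 141 to 248 with a median of 230.8. The genotypes did not overlap under any condition. The log2 fold change of *Maf* was -0.54 ± 0.15 (SE) in SPF mice (adjusted p = 0.0289), -0.47 ± 0.13 in GF mice (adjusted p = 0.0154) and -0.76 ± 0.12 in ABX mice (adjusted p = 4.41e-05). Averaged over conditions it was -0.59 ± 0.08 (adjusted p = 9.05e-07), or 0.666 times the WT level. The call in SPF mice was lost when any of 6 of the 8 mice compared was left out, with adjusted p up to 0.251 without mouse FAD_SPF_1144. The call in GF mice was lost without mouse FAD_GF_182 (adjusted p = 0.057) and with gene length offsets (adjusted p = 0.0937).

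*Sall1* also separated the genotypes without overlap under each condition. SPF WT mice had 724, 726, 758, 802 and 811 CPM and SPF 5xFAD mice 483.5, 652 and 720, so that in SPF mice the lowest WT and the highest 5xFAD mouse were close to each other. GF WT mice had 647, 690.2, 706 and 754 CPM against 467, 468, 471, 494 and 574 in GF 5xFAD mice. ABX WT mice had 663, 673, 709, 774 and 844 CPM, and ABX 5xFAD mice ranged from 517 to 653 with a median of 625. *Sall1* was lower in GF 5xFAD mice, by -0.50 ± 0.09 on the log2 scale (adjusted p = 3.49e-04), and in ABX 5xFAD mice, by -0.26 ± 0.09 (adjusted p = 0.0405). In SPF mice its log2 fold change of -0.31 ± 0.10 missed the threshold (adjusted p = 0.105). It was called in 2 of 39 alternatives, with limma voom with quality weights and without mouse FAD_SPF_1146 (adjusted p down to 0.0287). Over the alternatives it ran from -0.42 to -0.15, with adjusted p up to 0.736. The average was -0.35 ± 0.06 (adjusted p = 1.2e-05), or 0.782 times the WT level. The GF call held under all 39 alternatives, whereas the ABX call was lost under 10 of them, with adjusted p up to 0.132 without mouse WT_ABX_923.

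*Mef2a* followed the same direction. SPF WT mice had 706.5, 812, 842, 898 and 921.5 CPM and SPF 5xFAD mice 614, 677 and 689.5. GF WT mice had 510.0, 519, 545 and 742 CPM and GF 5xFAD mice 378, 383, 414, 437 and 460. ABX WT mice had 725.5, 762, 776, 785 and 828 CPM, and ABX 5xFAD mice ranged from 404 to 834 with a median of 613. The genotypes did not overlap in SPF or GF mice, and overlapped in ABX mice only through mouse FAD_ABX_1151, which was above all ABX WT mice. The log2 fold change of *Mef2a* was -0.48 ± 0.13 in GF mice (adjusted p = 0.0109), -0.35 ± 0.12 in ABX mice (adjusted p = 0.0479) and -0.34 ± 0.15 in SPF mice, where it was not called (adjusted p = 0.246). In SPF mice it was called in 3 of 39 alternatives: limma voom with quality weights, gene length offsets and only the groups compared (adjusted p down to 0.00739). The average was -0.39 ± 0.08 (adjusted p = 2.69e-04), or 0.763 times the WT level. Without mouse WT_GF_199, which stood above the other GF WT mice, the value in GF mice was -0.34 and was no longer called (adjusted p = 0.0955). The ABX call held in 12 of 39 alternatives, over which the value ran from -0.46 to -0.19, with adjusted p up to 0.239. Without mouse FAD_ABX_1151, which carried the neutrophil markers, it was -0.46 (adjusted p = 0.00327), but genotype and description style then coincide in ABX mice and cannot be told apart.

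*Irf8* moved the other way. SPF WT mice had 686, 691, 710.3, 752 and 811 CPM and SPF 5xFAD mice 664, 789 and 793, which overlap. GF WT mice had 823, 832, 850 and 888 CPM and GF 5xFAD mice 977, 1018, 1019, 1030 and 1111, with no overlap. ABX WT mice had 478, 629, 679, 782 and 807 CPM, and ABX 5xFAD mice ranged from 714 to 1104 with a median of 864, with overlap. The lowest of these, 714 CPM, was mouse FAD_ABX_1151, the ABX 5xFAD mouse that shares the description style of the ABX WT mice. Whether it also shares their running series is not given. *Irf8* was higher in ABX 5xFAD mice by 0.37 ± 0.10 (log2 fold change, adjusted p = 0.0138) and on average by 0.23 ± 0.07 (adjusted p = 0.00926), or 1.17 times the WT level. In GF mice the log2 fold change was 0.28 ± 0.11 (adjusted p = 0.0933), which was called in 6 of 39 alternatives. With scaling by library size alone, where the median of all genes in the average was -0.117 instead of -0.0345, the average for *Irf8* was 0.15 and was not called (adjusted p = 0.0783). The ABX call was lost without mouse WT_ABX_911, whose 478 CPM was the lowest of all mice (adjusted p = 0.0529), and with only the groups compared (adjusted p = 0.0843).

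The remaining 4 factors had averages close to 0. *Spi1* ranged from 260.3 to 378 CPM over all mice and its average log2 fold change was -0.0016, with an approximate 95% interval of -0.101 to 0.098. *Runx1* ranged from 98.9 to 159 CPM, with an average of -0.0028 and an interval of -0.136 to 0.131. For *Mef2c* (624 to 876 CPM) the average was -0.07 with an interval of -0.157 to 0.013, and for *Cebpa* (50.6 to 135.5 CPM) 0.07 with an interval of -0.136 to 0.272. With scaling by library size alone *Mef2c* was at -0.15 and was called (adjusted p = 0.00942), and with gene length or GC content offsets it was at 0.02 and 0.04, not called. The interval of *Spi1* reached from 0.932 to 1.07 times the WT level, and that of *Cebpa* was wider, from 0.91 to 1.21 times. *Cebpa* was 1.34 times the WT level in GF mice (log2 fold change 0.43 ± 0.18), which did not pass (adjusted p = 0.115).

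**Figure D2:**
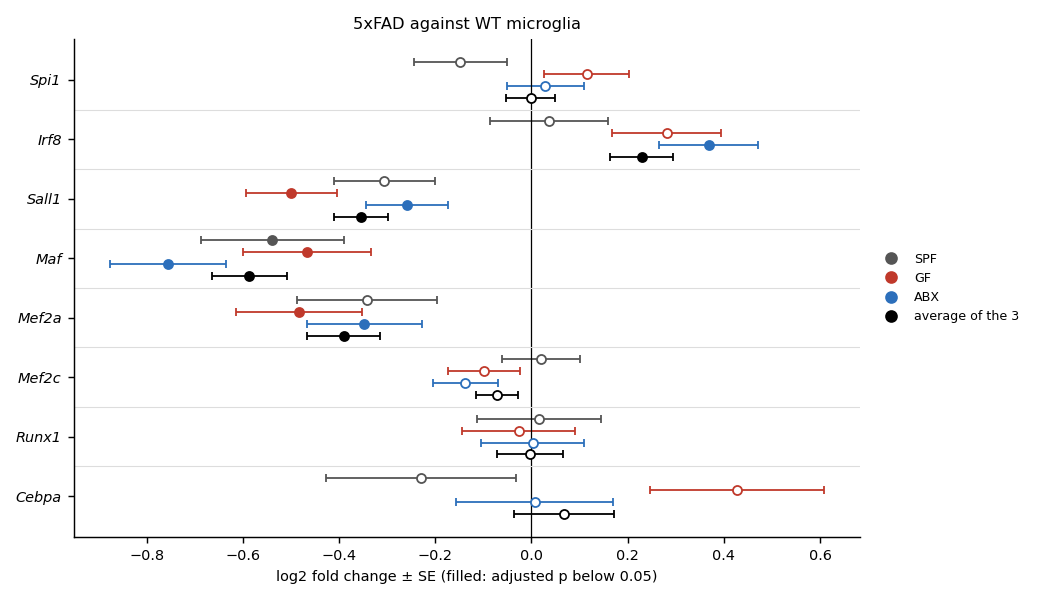
Log2 fold change of each factor between 5xFAD and WT mice (x axis, with the SE) in SPF, GF and ABX mice and averaged over the 3 conditions, filled where the adjusted p was below 0.05. *Maf* lies left of 0 under every condition (-0.54, -0.47 and -0.76), *Sall1* and *Mef2a* likewise, *Irf8* lies right of 0, and *Spi1* and *Runx1* averages lie at 0.

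Markers of other cell types also differed between genotypes, though not alike under every condition. In SPF mice 5 of 5 tested neutrophil markers and 4 of 6 border-associated macrophage markers were higher in 5xFAD mice (4.57% of all genes). In ABX mice 5 of 5 and 6 of 6 were (14.4% of all genes). There the neutrophil markers came from mouse FAD_ABX_1151 alone, with at most 0.285 CPM in the other 5 ABX 5xFAD mice. This mouse and the SPF 5xFAD mice are all the 5xFAD mice described by a mouse number. Summed monocyte markers did not overlap between genotypes in SPF mice (6.13 to 8.42 CPM in WT and 15.5 to 38.9 CPM in 5xFAD) or in ABX mice (2.09 to 9.05 and 14.4 to 51.9 CPM), and 1 and 2 of the 3 tested were higher. Summed dendritic cell markers had medians of 1.79 CPM in ABX WT and 17.2 CPM in ABX 5xFAD mice, with 3 of 4 higher. Endothelial cell markers went the other way. They summed to 30.6 to 43.1 CPM in WT and 23.2 to 29.2 CPM in 5xFAD mice under SPF conditions. In GF mice these sums were 27.45 to 35.3 and 8.12 to 21.4 CPM, without overlap under either condition, whereas ABX mice overlapped. Astrocyte markers did not overlap in GF mice (0.635 to 1.90 CPM in WT and 2.72 to 10.2 CPM in 5xFAD), but did in SPF and ABX mice. In GF mice neutrophil markers summed to at most 0.0907 CPM in both genotypes. Border-associated macrophage markers summed to 10.7 to 41.9 CPM in GF WT and 9.44 to 77.0 CPM in GF 5xFAD mice, monocyte markers to 3.4 to 16.6 and 5.98 to 24.9 CPM, and dendritic cell markers to 1.68 to 4.94 and 2.97 to 18.2 CPM, with 1 of the 4 dendritic cell markers higher in 5xFAD mice. The summed microglial markers over all conditions were 25660 to 30150 CPM in WT and 16540 to 22670 CPM in 5xFAD mice, without overlap. Their part in the results for the 8 factors was not tested.

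Whether the genotype effect on the factors differed between conditions was tested by the difference of the effects. By edgeR none of the 8 factors passed for GF minus SPF mice, ABX minus SPF mice or ABX minus GF mice, where 0%, 0% and 1.76% of all genes passed. At an unadjusted p below 0.05 there was 1 factor in the first, *Cebpa* (difference of log2 fold changes 0.66 ± 0.27, adjusted p = 0.509), 1 in the second, *Irf8* (0.33 ± 0.16, adjusted p = 0.733), and 0 in the third. Over the alternatives the GF minus SPF difference of *Cebpa* ran from 0.40 to 0.79. DESeq2 and limma voom with quality weights also called 0 of the 8 in each. The calls of *Sall1* in GF and ABX but not in SPF mice are thus not shown to differ between conditions, with an interval of -0.469 to 0.082 for the GF minus SPF difference of *Sall1*.

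The second question was how germ-free housing related to the factors. In 5xFAD mice, 5 of 8 factors differed between GF and SPF (12.8% of all genes): *Mef2a*, *Mef2c*, *Sall1* and *Maf* were lower and *Irf8* was higher in GF mice. In WT mice, 1 of 8 differed (1.62% of all genes), and it was again *Mef2a*, lower in GF mice. In both genotypes *Mef2a* had the largest fold change of the 8 in the model without offsets for gene length or GC content. With gene length offsets *Irf8* in 5xFAD mice and *Maf* in WT mice were farther from 0 than *Mef2a*, and with GC content offsets *Maf* in WT mice was.

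For *Mef2a* the GF 5xFAD mice (378 to 460 CPM) and the SPF 5xFAD mice (614 to 689.5 CPM) did not overlap, and the log2 fold change was -0.67 ± 0.14 (adjusted p = 0.00344), or 0.628 times the SPF level. In WT mice it was -0.53 ± 0.13 (adjusted p = 0.0379), and the groups overlapped through mouse WT_GF_199 at 742 CPM. Without that mouse the *Mef2a* difference in WT mice was -0.67 (adjusted p = 0.00886). The WT call was lost in 7 of the leave-one-out fits, with adjusted p up to 0.146 without mouse WT_GF_229. *Mef2a* and *Mef2c* are the longest of the 8 genes by counted exon and have the lowest GC contents, 42.0% and 40.8%, and offsets for these properties changed their values. With gene length offsets *Mef2a* fell to -0.31 in 5xFAD mice (adjusted p = 0.0396), and with GC content offsets it was -0.44 (adjusted p = 0.0192). The WT value was -0.36 with GC content offsets and was no longer called (adjusted p = 0.111).

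*Mef2c* had 624, 638, 658, 683 and 755 CPM in GF 5xFAD mice and 791, 828 and 871 in SPF 5xFAD mice. These did not overlap, and the log2 fold change was -0.31 ± 0.08 (adjusted p = 0.0134). With gene length offsets the *Mef2c* difference was 0.07 (adjusted p = 0.689) and with GC content offsets -0.03 (adjusted p = 0.869), so its direction rests on the model without them. The call was also lost without mouse FAD_SPF_1144 or mouse FAD_SPF_1148. In WT mice *Mef2c* was not called, with -0.19 ± 0.08 (adjusted p = 0.192).

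*Irf8* was at 664 to 793 CPM in SPF 5xFAD mice and at 977 to 1111 CPM in GF 5xFAD mice, without overlap. Its log2 fold change was 0.46 ± 0.12 (adjusted p = 0.0154), and it was 0.65 with gene length offsets and 0.41 with GC content offsets, called with both. Leaving out any of the 3 SPF 5xFAD mice ended the call for *Irf8*, with adjusted p between 0.0523 and 0.0834. *Sall1* (467 to 574 against 483.5 to 720 CPM) overlapped and gave -0.32 ± 0.10 (adjusted p = 0.0369), which was lost with gene length offsets (adjusted p = 0.111) and without mouse FAD_SPF_1146 (-0.22, adjusted p = 0.267) or mouse FAD_SPF_1148 (adjusted p = 0.147), among others. *Maf* (140.5 to 192 against 202 to 253 CPM) did not overlap and gave -0.43 ± 0.14 (adjusted p = 0.0495), which was lost in 15 of 39 alternatives and was -0.19 with gene length offsets.

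*Maf* in WT mice was at 215 to 246 CPM in GF and at 294.5 to 398 CPM in SPF mice, without overlap, yet its log2 fold change of -0.50 ± 0.14 just missed the threshold (adjusted p = 0.0548). It was called in 11 of 39 alternatives, DESeq2 and voom with quality weights among them, with adjusted p down to 0.00717. *Spi1* in 5xFAD mice had 294, 354, 364, 367 and 378 CPM under GF and 283, 299.7 and 302 CPM under SPF conditions, overlapping through mouse FAD_GF_201. Its log2 fold change of 0.25 ± 0.10 did not pass (adjusted p = 0.0831), and without mouse FAD_GF_201 it was 0.31 and passed (adjusted p = 0.0264). DESeq2 and voom with quality weights also called *Spi1* there, as did the fit with FAD_GF_201 as a GF WT mouse. These were the only 4 of 39 alternatives with a call, and over all of them the value ran from 0.04 to 0.31, with adjusted p up to 0.801. *Cebpa* gave 0.45 ± 0.20 in 5xFAD mice (adjusted p = 0.135), and 0.19 to 0.59 over the alternatives. The SPF 5xFAD mice had 50.6, 97.9 and 100.7 CPM of *Cebpa*. Neutrophil markers differed between the same groups, 5 of 5 tested being lower in GF 5xFAD than in SPF 5xFAD mice. Summed dendritic cell markers (2.97 to 18.2 CPM in GF and 1.22 to 2.81 CPM in SPF 5xFAD mice) did not overlap. Nor did endothelial cell markers (8.12 to 21.4 CPM in GF and 23.2 to 29.2 CPM in SPF 5xFAD mice). In WT mice 4 of 6 border-associated macrophage markers were higher in GF than in SPF mice. The part of these cells in the values of the factors was not tested. SPF and GF mice differ in description style in both genotypes, which cannot be told apart from housing.

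**Figure D3:**
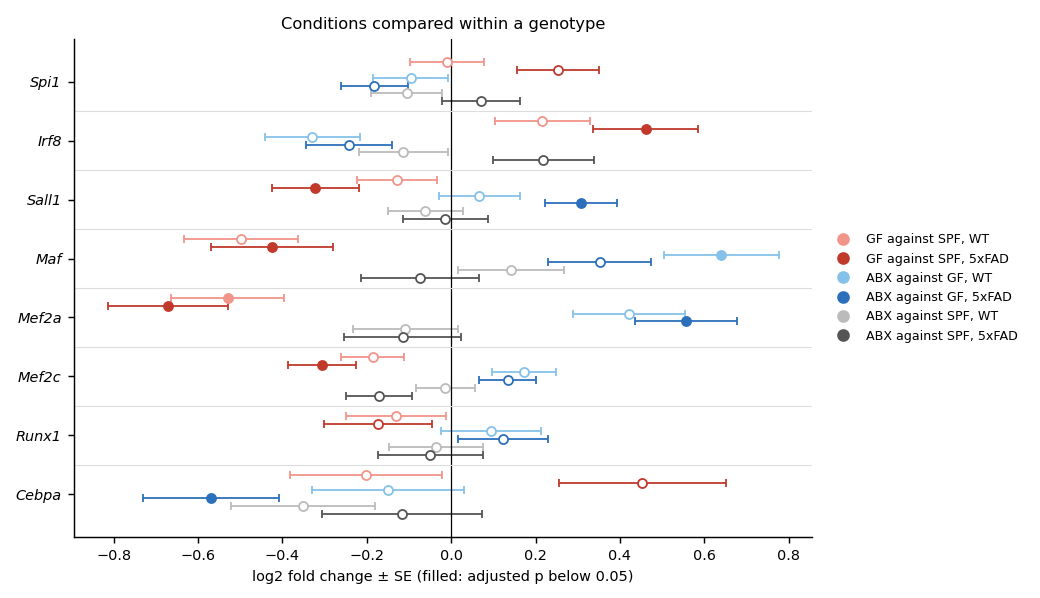
Log2 fold change of each factor (x axis, with the SE) between conditions within WT (light) and 5xFAD mice (dark), filled where the adjusted p was below 0.05. *Mef2a* and *Maf* lie left of 0 for GF against SPF and right of 0 for ABX against GF in both genotypes, whereas no value for ABX against SPF is filled.

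**Figure D4:**
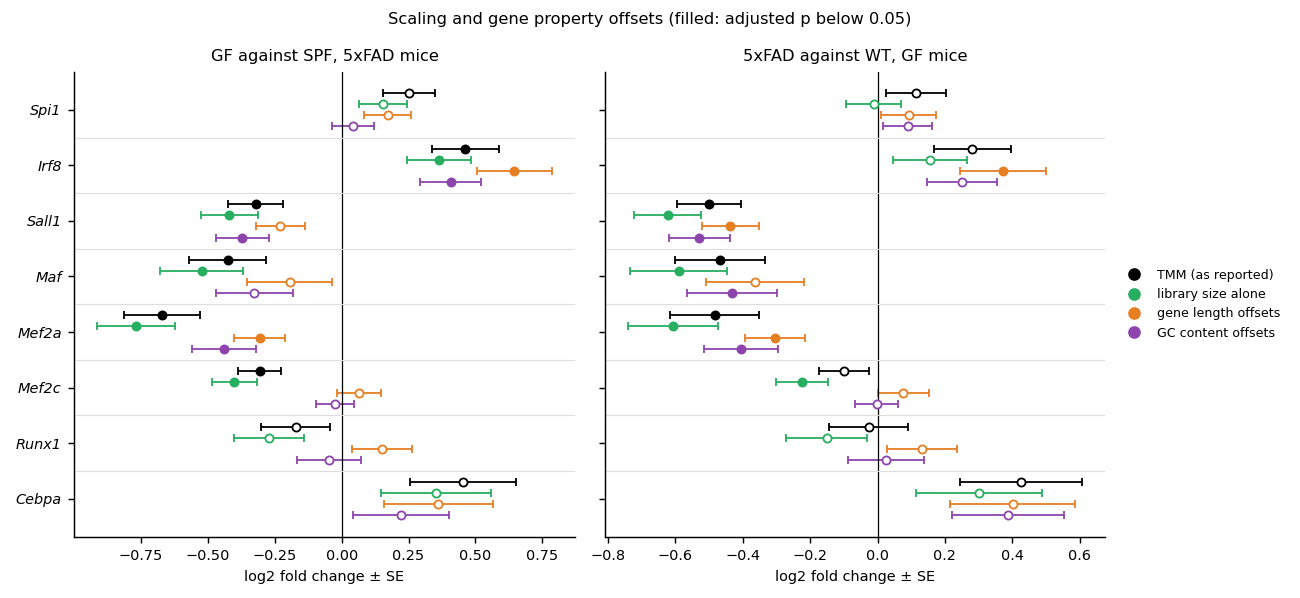
Log2 fold change with its SE (x axis) of each factor for GF against SPF in 5xFAD mice (left) and for 5xFAD against WT in GF mice (right), with TMM scaling, library size alone, and offsets for gene length or GC content, filled where the adjusted p was below 0.05. In the left panel *Mef2a* stays filled in all 4 while *Mef2c* moves to 0.07 and -0.03 under the offsets, and in the right panel *Sall1* and *Mef2a* stay filled in all 4.

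Antibiotic treatment was compared with SPF conditions in each genotype. Of the 8 factors, 0 passed edgeR's test for ABX against SPF in WT mice and 0 in 5xFAD mice (0% of all genes in each). DESeq2 and limma voom with quality weights called 0 of the 8 as well. At an unadjusted p below 0.05 there was 1 factor in each genotype. It was *Cebpa* in WT mice, with -0.35 ± 0.17 and an interval of -0.685 to -0.018, and *Mef2c* in 5xFAD mice, with -0.17 ± 0.08 and an interval of -0.325 to -0.018. In WT mice both groups share a description style. In 5xFAD mice the comparison crosses styles, and only mouse FAD_ABX_1151 among the ABX mice shares the style of the SPF mice. Summed neutrophil markers were 61.1 to 263 CPM in SPF 5xFAD mice and at most 0.285 CPM in ABX 5xFAD mice other than FAD_ABX_1151. Border-associated macrophage markers summed to 15.3 to 28.3 CPM in SPF and 32.8 to 242 CPM in ABX 5xFAD mice. The part of these cells was not tested.

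ABX against GF gave 1 of 8 factors in WT mice (6.88% of all genes) and 3 of 8 in 5xFAD mice (10.6%). These comparisons share the GF mice with those of GF against SPF and are not independent of them. In WT mice *Maf* was higher in ABX mice (312.5 to 465 CPM) than in GF mice (215 to 246 CPM), without overlap, by 0.64 ± 0.14 on the log2 scale (adjusted p = 0.0058), and this call held in all 39 alternatives. Border-associated macrophage markers did not overlap between these groups either (3.74 to 5.90 CPM in ABX and 10.7 to 41.9 CPM in GF WT mice), and their part was not tested. ABX and GF WT mice also differ in description style, which cannot be told apart from treatment and housing. *Mef2a* in WT mice narrowly missed the threshold, with 0.42 ± 0.13 (adjusted p = 0.0519), and *Irf8* gave -0.33 ± 0.11 (adjusted p = 0.0732). *Mef2a* was called in 18 of 39 alternatives, with values from 0.20 to 0.56 and adjusted p up to 0.407, and *Irf8* in 7. *Mef2c* gave 0.17 ± 0.08 (adjusted p = 0.159).

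In 5xFAD mice *Mef2a* was higher in ABX (404 to 834 CPM) than in GF mice (378 to 460 CPM), overlapping through mouse FAD_ABX_1482, with a log2 fold change of 0.56 ± 0.12 (adjusted p = 0.00451) that was called in all 39 alternatives. *Sall1* was higher by 0.31 ± 0.09 (adjusted p = 0.0212), with 517 to 653 CPM in ABX and 467 to 574 CPM in GF mice, which overlap, and lost its call in 3 of 39 alternatives (26 libraries, only the groups compared, and without mouse FAD_GF_181), with adjusted p up to 0.0625. *Cebpa* was lower in ABX mice (54.6 to 98.4 CPM, median 78.3) than in GF mice (87.7, 109, 117, 120 and 135.5 CPM), with -0.57 ± 0.16 (adjusted p = 0.0229), and lost its call in 7 of 39 alternatives. *Maf* gave 0.35 ± 0.12 (adjusted p = 0.0606), *Irf8* -0.24 ± 0.10 (adjusted p = 0.124) and *Spi1* -0.18 ± 0.08 (adjusted p = 0.142). Without mouse FAD_ABX_1151, so that all mice shared a description style and no mouse carried the neutrophil markers, *Mef2a* was at 0.46 (adjusted p = 0.0128), *Sall1* at 0.30 (adjusted p = 0.043) and *Cebpa* at -0.60 (adjusted p = 0.0332). Border-associated macrophage markers also moved between these groups, with a median sum of 145 CPM (32.8 to 242) in ABX and 21.5 CPM (9.44 to 77.0) in GF 5xFAD mice and 1 of 6 called, and their part was not tested.

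Over the 6 groups together, 6 of the 8 factors varied by edgeR's F test (33.2% of all genes), with adjusted p between 3.06e-07 for *Maf* and 0.0366 for *Cebpa*. *Spi1* (adjusted p = 0.185) and *Runx1* (adjusted p = 0.738) did not pass. The count ran from 4, with gene length or GC content offsets, to 7 with voom.

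The genes whose levels ran most like each factor were looked for among 8929 well expressed genes over the 28 libraries, by Pearson's r of log2 CPM. These libraries share groups, so both r and r after subtracting group means are given as descriptions. *Mef2a* ran with *Cd33* (r = 0.951, 0.80 within groups), which encodes an inhibitory sialic acid receptor of myeloid cells, and *Maf* with *Zfhx3* (r = 0.946, 0.861 within groups), itself a transcription factor gene. *Irf8* ran with *Slc19a1* (r = 0.929, 0.823), a folate carrier gene, and *Sall1* with *Srgap2* (r = 0.927, 0.736). *Mef2c* was nearest to *Tubgcp5* (r = 0.898, 0.835), *Cebpa* to *Ppme1* (r = 0.804, 0.789), *Spi1* to *Rapsn* (r = 0.802, 0.748) and *Runx1* to *Fam120a* (r = 0.733, 0.726). Among the factors themselves the highest r was 0.803 for *Mef2a* with *Mef2c* (0.547 within groups), followed by 0.779 for *Mef2a* with *Sall1* (0.354 within groups). *Irf8* ran opposite to *Mef2a* (r = -0.764, -0.35 within groups), *Mef2c* (r = -0.756, -0.45) and *Maf* (r = -0.744, -0.26). All 5 values were closer to 0 once group means were subtracted.

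Relatives of the 8 factors were examined to see how far the pattern was shared by their families. Of 35 ETS, IRF, SALL, MAF, MEF2, RUNX and C/EBP family genes, counting the RUNX binding partner *Cbfb*, 30 were tested, and 6 were higher and 8 lower in 5xFAD mice on average, where 25.1% of all genes passed, with a median log2 fold change of -0.062 against -0.0345 over all genes. Among the MAF relatives only *Maff*, a small MAF without a transactivation domain, passed, and it was higher by 2.73 ± 0.33 (adjusted p = 2.02e-07), from 0.0408 to 0.782 CPM in WT to 1.51 to 4.71 CPM in 5xFAD mice. *Sall2* was lower by -0.61 ± 0.13 (adjusted p = 9.44e-04), in the same direction as *Sall1*. Of the 8 other IRF genes 2 were higher and 3 lower, with *Irf7*, a driver of the interferon response, at 1.84 ± 0.32 (adjusted p = 5.91e-05) and *Irf1* at -0.30 ± 0.09 (adjusted p = 0.0106). Among ETS relatives *Ets2* was higher by 0.43 ± 0.09 (adjusted p = 7.49e-04), and *Ets1* (-0.26 ± 0.06, adjusted p = 0.00246) and *Fli1* (-0.22 ± 0.05, adjusted p = 8.96e-04) were lower. *Runx2* and *Runx3* were higher by 2.17 ± 0.47 and 2.08 ± 0.61, but neither exceeded 2.68 CPM in any mouse. *Maff*, *Runx2* and *Runx3* were called in the 37 alternatives that tested them and fell out with a filter of at least 10 counts in every library. *Cebpd* was lower by -0.38 ± 0.08 (adjusted p = 7.15e-04) and *Cebpg* by -0.16 ± 0.06 (adjusted p = 0.0465), which held in 9 of 38 alternatives, and *Mef2d*, the only other MEF2 gene tested, did not pass.

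Of 10 tested genes for the CSF1 receptor and TGF-beta pathways, which sustain microglia and *Sall1*, 2 were higher and 1 lower in 5xFAD mice on average, a share close to the 25.1% of all genes. *Csf1*, a ligand of the CSF1 receptor, had 15.2 to 35.2 CPM in WT and 111 to 257 CPM in 5xFAD mice, without overlap, and was higher by 2.71 ± 0.10 on the log2 scale (adjusted p = 1.62e-18). *Tgfbr2*, which encodes the receptor that binds TGF-beta, was higher by 0.45 ± 0.06 (adjusted p = 1.27e-06), while *Tgfbr1*, its signalling partner, was lower by -0.27 ± 0.10 (adjusted p = 0.0366), a call that held in 24 of 38 alternatives. Among 5xFAD mice 1 of the 10 was higher and 2 were lower under GF than under SPF conditions (12.8% of all genes passed). *Csf1* was higher by 0.68 ± 0.19 (adjusted p = 0.0157), *Tgfbr1* was lower by -0.95 ± 0.18 (adjusted p = 0.00179) and *Smad3*, which encodes a transducer of TGF-beta signals, by -0.59 ± 0.18 (adjusted p = 0.0305). The calls of *Csf1* and *Smad3* were lost in 3 and 4 of 39 alternatives. For *Csf1* these were the fit with FAD_GF_201 as a GF WT mouse and those leaving out FAD_SPF_1144 or FAD_SPF_1148 (adjusted p up to 0.128). For *Smad3* they left out FAD_SPF_1146, FAD_SPF_1148, FAD_GF_182 or FAD_GF_184 (adjusted p up to 0.189).

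Among 15 genes characteristic of mature microglia and macrophages, 9 were lower and 1 was higher in 5xFAD mice on average (25.1% of all genes passed in either direction), with a median of -0.19. *P2ry12*, the purinergic receptor of resting microglia, gave -0.55 ± 0.06 (adjusted p = 5.4e-08), *P2ry13* -0.54 ± 0.07 (adjusted p = 3.3e-07), *Tmem119* -0.51 ± 0.06 (adjusted p = 3.44e-08) and *Slc2a5*, a fructose transporter gene, -0.39 ± 0.05 (adjusted p = 9.96e-07). The gene that rose was *C1qa*, a complement component, at 0.18 ± 0.05 (adjusted p = 0.012), which was lost with library size alone and with GC content offsets (adjusted p up to 0.161). In SPF, GF and ABX mice 4, 7 and 6 of the 15 were lower and 0, 1 and 0 were higher, where 4.57%, 15.6% and 14.4% of all genes passed in either direction. Over the alternatives the lower counts ran from 2 to 9, 6 to 8 and 5 to 9. Between GF and SPF 5xFAD mice the list was split (12.8% of all genes passed), with 3 higher, such as *Fcrls* (0.78 ± 0.09, adjusted p = 1.02e-05), and 3 lower, such as *P2ry13* (-0.57 ± 0.13, adjusted p = 0.00466). These counts ran from 1 to 6 and from 2 to 5 over the alternatives, and *Fcrls* and *P2ry13* were called in all 39. Of 6 tested factors of other tissue macrophages, *Pparg* was higher and *Zeb2* lower on average, against 25.1% of all genes, *Zeb2* by -0.30 ± 0.08 (adjusted p = 0.00643, and 0.0505 with GC content offsets), and *Pparg* did not exceed 0.905 CPM in any mouse. The call of *Pparg* was lost with mouse FAD_GF_201 as a GF WT mouse (adjusted p = 0.12), and it was not tested with at least 10 counts in every library.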

How the data were processed

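The authors sorted microglia, amplified cDNA with a SMARTer kit, sequenced single reads and deposited raw counts per gene. Per the labels, the notes name CASAVA 1.8.2, STAR 2.7.2 and featureCounts 1.6.2, and a human build (GRCh38.p12), although the deposited exon coordinates are those of mouse GRCm38. From these counts, 28 libraries were matched to mice by title, and 92 spike-in rows were set aside. Genes were kept by filterByExpr (at least 10 counts in enough libraries, total at least 15). The main test was edgeR 4.0.16 quasi-likelihood with TMM in a model of the 6 groups, adjusted by Benjamini-Hochberg over all 15298 genes, threshold 0.05. SEs come from the fold change and its F statistic. limma 3.58.1 voom with quality weights (the type of model the study used), DESeq2 1.42.0, other scalings and filters, gene length and GC content offsets, 26 libraries (without mice FAD_ABX_1151 and FAD_ABX_1482), mouse FAD_GF_201 as GF WT, only the groups compared, and each mouse left out in turn were alternatives. Fits were tested on simulated counts in R 4.3.3. Named genes were the 8 factors, the nearest genes by r (mean of at least 3 log2 CPM, prior count 2), and called genes with large fold changes in related lists. The members and lists were chosen with earlier results of these data known. Some genes of the fixed lists are not reported here. No 2 libraries of the same group agreed within counting noise (lowest chi-square per degree of freedom 6.92 over 54 pairs).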

Additional observations from a re-analysis of the deposited data

Results flagged for a closer look

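Single mice stood apart from the rest of their group in 6 of 40 combinations of factor and group with 4 or more mice, where chance gives about 1 in 20. mouse FAD_GF_201, whose labels disagree on its genotype, had 294 CPM of *Spi1* against 354 to 378 CPM in the other 4 GF 5xFAD mice, and 574 CPM of *Sall1* against 467 to 494 CPM. Its *Sall1* level lies between theirs and the 647 to 754 CPM of GF WT mice. Its 132.4 CPM of *Csf1* lie among the 111 to 257 CPM of 5xFAD mice and above the 35.2 CPM that no WT mouse exceeded, and its summed microglial markers of 21170 CPM are below those of every WT mouse (25660 CPM or more). Both values lie outside those of the other 4 GF 5xFAD mice, 193 to 257 CPM of *Csf1* and 16540 to 17260 CPM of the markers. mouse FAD_ABX_1455 had 517 CPM of *Sall1* against 619 to 653 CPM in the other 5. mouse FAD_ABX_1460 had 141 CPM of *Maf* against 220.5 to 248 CPM. mouse WT_GF_199 had 215 CPM of *Maf* against 242 to 246 CPM and 742 CPM of *Mef2a* against 510.0 to 545 CPM in the other 3 GF WT mice.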

How the results depend on the processing

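Of the members called, the average genotype effect gave a count of 4 in all alternatives run, but with library size alone *Mef2c* was among the 4 and *Irf8* was not. For ABX against GF in WT mice (1 factor) the count was 2 with RLE size factors, library size alone, with a filter of at least 10 counts in every library, and with gene length offsets or only the groups compared, 3 with DESeq2, 26 libraries and mouse FAD_GF_201 as a GF WT mouse, and 4 with voom. For GF against SPF in WT mice (1) it was 2 with at least 10 counts in every library, DESeq2, 26 libraries and mouse FAD_GF_201 as GF WT, 3 with voom and only the groups compared, and 0 with GC content offsets. For 5xFAD against WT in SPF mice (1) it was 3 with voom and 2 with gene length offsets and only the groups compared. In ABX mice (4) it was 2 with no low-count filter and 1 with only the groups compared, and in GF mice (3) 5 with only the groups compared. For GF against SPF in 5xFAD mice (5) it was 2 with gene length and 3 with GC content offsets and 6 with DESeq2 and voom, and for ABX against GF in 5xFAD mice (3) 1 with only the groups compared. The F test over the 6 groups (6) gave 7 with voom, 5 with library size alone and with mouse FAD_GF_201 as GF WT, and 4 with gene length or GC content offsets. With single mice left out, the counts ranged from 0 to 1 for 5xFAD against WT in SPF mice, 2 to 5 in ABX mice, 0 to 2 for GF against SPF in WT mice, 1 to 3 for ABX against GF in WT mice, 1 to 6 for GF against SPF in 5xFAD mice and 2 to 5 for ABX against GF in 5xFAD mice. The cause of these changes was not tested.

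Over all 104 pairs of factor and comparison, the sign turned under at least 1 alternative in 48, of which 1 was called, *Mef2c* for GF against SPF in 5xFAD mice (-0.31, adjusted p = 0.0134). The turned signs given here are those of the averages and of values with an unadjusted p below 0.05. The average of *Spi1* was 0.0056 with RLE, 0.0146 with at least 10 counts in every library, 0.0055 with DESeq2, 0.0268 with mouse FAD_GF_201 as GF WT and 0.0061 with gene length offsets, and -0.0159 to 0.0254 with single mice left out. That of *Runx1* was 0.0049, 0.0135, 0.0048, 0.0184 and 0.0603 in the same order, 0.031 with voom and 0.0397 with GC content offsets, and -0.0221 to 0.0446 with single mice left out. That of *Cebpa* was -0.0138 with library size alone and -0.0093 with GC content offsets, and that of *Mef2c* 0.0165 with gene length and 0.0372 with GC content offsets. *Mef2c* also turned to 0.0653 for GF against SPF in 5xFAD mice with gene length offsets, and with GC content offsets to 0.022 for GF against SPF and -0.1003 for ABX against GF in WT mice.

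Over all genes, voom called 2154 instead of 699 for 5xFAD against WT in SPF mice, 3872 instead of 1962 for GF against SPF in 5xFAD mice, 1631 instead of 248 in WT mice and 2025 instead of 1053 for ABX against GF in WT mice, where GC content offsets left 253. Only the groups compared gave 251 instead of 1621 for ABX against GF in 5xFAD mice. With library size alone, 37.1% instead of 56.9% of the calls in the average, and 36.6% instead of 60.3% in GF mice, were higher in 5xFAD. No paired analysis was possible because the mouse numbers in the labels differ between groups.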
